A study of Mus musculus with 17 samples.

Results

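Siglecs are sialic acid-binding immunoglobulin-like lectins, receptors that read the sialic acids at the tips of glycans on the same or on a neighbouring cell. The 8 genes described here are 5 Siglec receptor genes (Siglecf, Siglece, Siglecg, Cd33 and Siglec1) and the genes of 3 phosphatases that inhibitory receptors of this kind can recruit (Ptpn6, Ptpn11 and Inpp5d). They were taken by gene symbol, with no cutoff on their values, from the 22180 genes with a named probe set. The choice was made with earlier results of these data known. Each was read by 1 probe set that carried no other gene's symbol.

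The cells were eosinophils sorted as CD45+, Siglec-F+ and CCR3+ from mice with the CC10-IL13Tg transgene, an interleukin-13 gene behind the CC10 promoter of airway club cells that is switched on by doxycycline (Dox) in the food. All mice, controls included, carried this transgene and were males and females aged 6 to 8 weeks. The 6 groups were esophagus with Dox from Pirb-/- mice (knockout, 3 arrays) and from Pirb+/+ littermates (wildtype, 3 arrays), marrow with Dox from knockout (3) and wildtype (3), and marrow without Dox from knockout (3) and wildtype (2). Dox was given for 2 weeks, and the groups without Dox are the controls for it.

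The receptors that carry an immunoreceptor tyrosine-based inhibitory motif (ITIM) in the cytoplasmic tail, Siglec-F, Siglec-E and Siglec-G among the members, are phosphorylated there by Src-family kinases. The phosphorylated motif then docks SH2-domain phosphatases. SHP-1 (Ptpn6) and SHP-2 (Ptpn11) remove phosphate from proteins, while SHIP-1 (Inpp5d) removes it from the membrane lipid PIP3. PIR-B, the receptor deleted in the knockout, also works through ITIMs and the SHP phosphatases. On mouse eosinophils Siglec-F is the best known member of the family: cross-linking it causes eosinophils to die, and mice without it accumulate more eosinophils in allergic inflammation.

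Every value below is a log2 distance from the median array of the same probe set. A value near 0 therefore does not mean that the gene is weakly expressed, and values of different genes cannot be compared as levels. The log base is taken as log2. A difference is called when its two-sided adjusted p in limma, fitted over all 17 arrays with Benjamini-Hochberg adjustment over all genes, is under 0.05. Errors of group means are SDs and errors of differences are standard errors, both with the n given for the groups above.

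Some facts of the whole series bear on these values. One array, replicate 3 of the knockout marrow group without Dox, was an outlier. The SD over probe sets was 0.811 there, while the remaining marrow arrays had 0.25 to 0.30 and those of the esophagus 0.50 to 0.59. The mean correlation of the outlying array with its own group, across genes, was -0.0268. Pirb, the deleted gene, was at 0.77, 1.20 and 1.02 in knockout esophagus, against 2.17, 0.75 and 0.92 in wildtype esophagus. It was at -0.01, -0.79 and -0.39 in knockout marrow with Dox, against -0.21, -0.55 and 0.01 in wildtype marrow with Dox. Without Dox it was at 0.16, -0.12 and -1.21 in knockout marrow, the last in the outlying array, against -0.16 and 0.19 in wildtype marrow. The groups overlapped in all 3 settings. The sources used here do not say whether that probe set lies in the deleted part of Pirb, so it checks nothing about the genotype labels. Centred values do not show whether a marker is present, so they cannot check the eosinophil label. The directions of marker genes are given beside the tissue comparison.

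**Figure D1:**
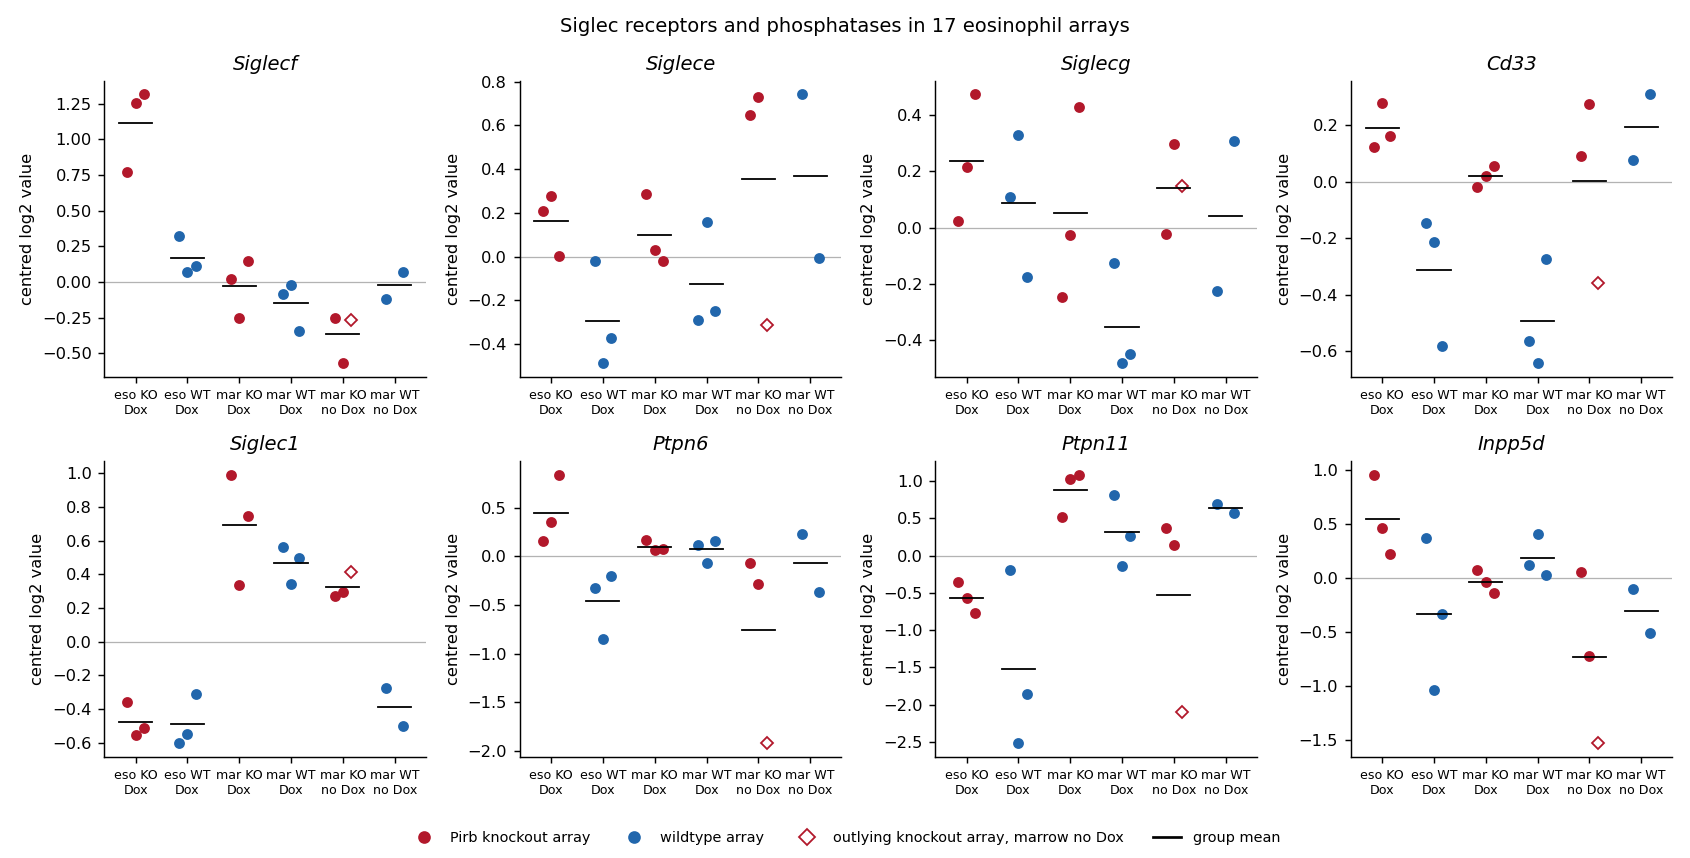
Centred log2 value of each of the 8 genes (y axis, one panel a gene, each with its own scale) in each of the 17 arrays, by group (x axis: eso is esophagus, mar is marrow, KO is Pirb knockout, WT is wildtype). Points are arrays, bars are group means and the open diamond is the outlying knockout array of marrow without Dox; Siglecf in knockout esophagus, at 0.77 to 1.32, lies above every other array of that gene.

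Siglecf encodes Siglec-F, the mouse receptor whose protein was also 1 of the 3 sorting markers. Eosinophils of the knockout esophagus had more Siglecf transcript than those of the wildtype esophagus, and more than those of knockout marrow with Dox. The values were 0.77, 1.26 and 1.32 in knockout esophagus, against 0.33, 0.07 and 0.11 in wildtype esophagus. Marrow with Dox had 0.02, -0.25 and 0.15 in knockout and -0.08, -0.02 and -0.34 in wildtype. Without Dox they were -0.25, -0.57 and -0.27 in knockout marrow and -0.12 and 0.07 in wildtype marrow. The 3 arrays of the knockout esophagus were thus the 3 highest of the series, and the other groups overlapped with their neighbours in the order of means.

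Between the genotypes in the esophagus, Siglecf averaged 1.11 ± 0.30 in knockout and 0.17 ± 0.14 in wildtype. The difference was 0.95 ± 0.16 (95% interval 0.60 to 1.29), a ratio of 1.93 on the linear scale, with a limma adjusted p of 0.0259. It was the single call among the 8 genes in this comparison, in which 0.347% of all genes were called. An exact permutation test of these 6 arrays gave p = 0.1, the smallest this design allows. In knockout, Siglecf rose by 1.14 ± 0.16 in the esophagus relative to marrow with Dox (limma adjusted p = 0.000479), in a comparison in which 10.5% of all genes were called. Both differences use the same 3 knockout esophageal arrays. In wildtype the corresponding tissue difference was 0.32 ± 0.16 (95% interval -0.03 to 0.66, limma adjusted p = 0.165). The genotype by tissue interaction was 0.82 ± 0.22, with an unadjusted limma p of 0.0028 and an adjusted p of 0.598, so the tissue differences of the genotypes were not shown to differ. In this interaction 0.00451% of all genes, a single gene, were called.

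In bulk RNA of sorted cells, a change in the share of cells that hold a transcript and a change in the RNA per cell cannot be told apart. All groups passed the same Siglec-F gate. Whether the gate took the same range of Siglec-F protein in each group was not tested.

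The genotype call of Siglecf in the esophagus was kept in 16 of 24 alternative settings. Over all 24 the values were 0.71 to 1.12 and the adjusted p 0.0144 to 0.797. Most of the kept settings leave out a marrow array, which cannot change the difference, only the shared spread and the adjustment. Another probe set rule cannot change it either, as Siglecf has 1 probe set. Among the esophageal arrays, the call was kept without wildtype replicate 1 (adjusted p = 0.0145) or knockout replicate 1 (0.0144). It was lost without wildtype replicate 2 (adjusted p = 0.0839) or 3 (0.077) and without knockout replicate 2 (0.104) or 3 (0.0733). It was lost as well with only the compared groups in the fit (0.206) and after quantile normalization (0.797), in which the difference was 0.71. Mice of both sexes were used, and the mean of 3 Y-linked genes (Eif2s3y, Kdm5d and Uty) was at 0.39 ± 0.51 in knockout esophagus and -0.37 ± 0.44 in wildtype esophagus. With that mean as a covariate the Siglecf difference was 0.97 and its adjusted p 0.229. The mean of 7 eosinophil markers was 0.33 to 0.56 in the knockout esophageal arrays, against -0.42 to 0.11 in the wildtype ones, with 0 of the 7 called, and 0.08 to 0.36 in knockout marrow with Dox. Their part in the Siglecf result was not tested. The rise of Siglecf over marrow in knockout was called in all 25 alternatives run for it, with values of 0.89 to 1.31 and adjusted p of 9.94e-05 to 0.039.

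**Figure D2:**
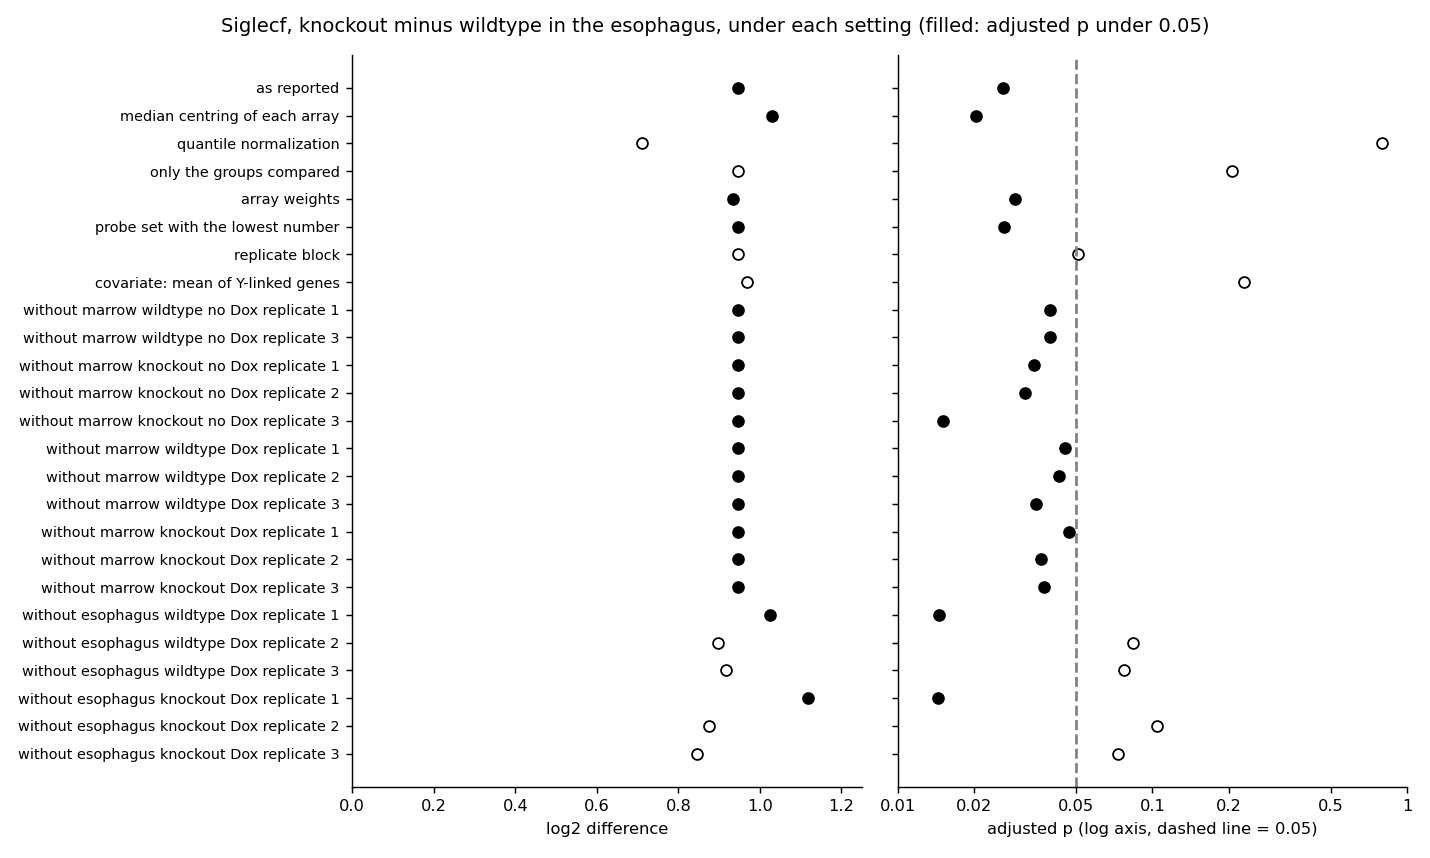
Siglecf, knockout minus wildtype in the esophagus, as reported and under each of 24 alternative settings that could be run for it: the log2 difference (left, x axis from 0) and its limma adjusted p (right, log axis, dashed line at 0.05), one row a setting. Filled points are called. The difference stays between 0.71 and 1.12, and leaving out a marrow array cannot change it. Its adjusted p is above 0.05 in 8 of the settings.

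By the root mean square difference over the 17 arrays, the 3 genes with the pattern most like that of Siglecf were Ptpre (0.196), Btbd9 (0.217) and Rapgef2 (0.220). They were picked by their values in these same arrays, so higher means in knockout esophagus follow from the choice. Their differences and p-values are descriptive and lend nothing to the Siglecf result. Ptpre encodes receptor-type tyrosine phosphatase epsilon. It averaged 1.03 ± 0.19 in knockout esophagus and 0.31 ± 0.21 in wildtype esophagus, a difference of 0.72 ± 0.12 (limma adjusted p = 0.0274). Rapgef2 encodes an exchange factor for the GTPase Rap. It differed there by 0.83 ± 0.17 (limma adjusted p = 0.0596), and Btbd9 by 0.82 ± 0.22 (0.153). Siglecg was the nearest of the other members, at 0.486, with 1828 genes closer.

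The remaining CD33-related receptors of the group are Cd33, Siglece and Siglecg, all on chromosome 7, as Siglecf is and as Pirb is. Mouse CD33 differs from its human counterpart in lacking the usual ITIM and in carrying a charged transmembrane residue through which it pairs with the activating adaptor DAP12. No genotype difference in Cd33 was called, although its mean was higher in knockout in both tissues with Dox. The values were 0.12, 0.28 and 0.16 in knockout esophagus, against -0.15, -0.21 and -0.58 in wildtype esophagus. In marrow with Dox they were -0.02, 0.02 and 0.06 in knockout, against -0.56, -0.64 and -0.27 in wildtype. In both settings the arrays of the genotypes did not overlap. Without Dox the values were 0.09, 0.27 and -0.36 in knockout marrow, the last in the outlying array, and 0.08 and 0.31 in wildtype marrow, and the groups overlapped.

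The Cd33 difference between knockout and wildtype was 0.50 ± 0.16 in the esophagus (95% interval 0.16 to 0.84, limma adjusted p = 0.213) and 0.51 ± 0.16 in marrow with Dox (0.17 to 0.85, limma adjusted p = 1). Without Dox it was -0.19 ± 0.18, and -0.0090 without the outlying array. The genotype by Dox interaction in marrow was 0.70 ± 0.24, with an unadjusted limma p of 0.0111 and an adjusted p of 0.663, in a comparison in which 0% of genes were called. Within wildtype marrow, Cd33 differed between Dox and no Dox by -0.69 ± 0.18 (limma adjusted p = 0.457), and within knockout marrow by 0.02 ± 0.16, which turned to -0.16 without the outlying array. The wildtype Dox difference was called after quantile normalization (-1.57, limma adjusted p = 0.0212) and with array weights (-0.73, 0.0308). Between the tissues in wildtype, Cd33 differed by 0.18 ± 0.16 (0.404), and was called after quantile normalization (1.05, 0.0159). Without the outlying array the genotype difference in the esophagus was called (adjusted p = 0.0478), and the range over all its alternatives was 0.0339 to 0.984.

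Siglec-E is the inhibitory Siglec of mouse neutrophils and macrophages. Siglece ranged from 0.0050 to 0.28 in knockout esophagus and from -0.49 to -0.02 in wildtype esophagus, without overlap. The difference was 0.46 ± 0.26 (limma adjusted p = 0.408), and 0.07 with the Y-linked covariate. In marrow with Dox it ranged from -0.02 to 0.28 in knockout and from -0.29 to 0.16 in wildtype. Marrow without Dox had both the highest mean and the widest spread, from -0.31 to 0.73 in knockout and from -0.0050 to 0.74 in wildtype, and the lowest knockout value was that of the outlying array. None of the differences of Siglece was called, and all neighbours in the order of its group means overlapped.

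Siglec-G restrains B cell receptor signalling and is best known from B-1 cells. Siglecg had one of the narrowest ranges of the group, 0.96 from the lowest array to the highest, which was at the 59.4 percentile of all genes. It ranged from 0.02 to 0.47 in knockout esophagus and from -0.17 to 0.33 in wildtype esophagus, and the genotypes differed there by 0.15 ± 0.20. In marrow with Dox it ranged from -0.25 to 0.43 in knockout and from -0.48 to -0.13 in wildtype, a difference of 0.40 ± 0.20 (95% interval -0.03 to 0.84, limma adjusted p = 1). Without Dox it ranged from -0.02 to 0.30 in knockout marrow and from -0.23 to 0.31 in wildtype marrow. Neighbouring groups overlapped throughout.

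The start regions of Siglecf and Cd33 are shown because both genes lay wholly apart between the genotypes in the esophagus. They also share the longest stretch found between any members' promoters, each read on the strand of its gene. The windows run from 250 bases before to 50 after the start site and come from RefSeq with the GRCm38.p6 build, Siglecf at chr7:43351091-43351390 on the plus strand and Cd33 at chr7:43533122-43533421 on the minus strand. They are written 5′ to 3′ on the strand of the gene, with their longest shared run in capitals.
Siglecf: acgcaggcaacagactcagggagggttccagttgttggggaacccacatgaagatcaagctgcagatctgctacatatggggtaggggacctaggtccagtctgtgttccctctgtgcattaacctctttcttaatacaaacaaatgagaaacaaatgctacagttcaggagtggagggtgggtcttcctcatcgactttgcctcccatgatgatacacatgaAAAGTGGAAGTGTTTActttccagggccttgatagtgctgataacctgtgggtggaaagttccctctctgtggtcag
Cd33: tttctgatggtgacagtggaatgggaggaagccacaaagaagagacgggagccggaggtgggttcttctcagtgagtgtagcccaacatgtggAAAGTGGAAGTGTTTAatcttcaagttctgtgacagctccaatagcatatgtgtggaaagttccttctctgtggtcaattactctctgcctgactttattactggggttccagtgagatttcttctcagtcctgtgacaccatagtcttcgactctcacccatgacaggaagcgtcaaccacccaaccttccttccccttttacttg

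The 16-base run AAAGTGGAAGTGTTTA begins 27 bases before the Siglecf start site and 157 bases before the Cd33 start site. Of 32851 promoter windows in the table, 2 hold it on either strand. The table had windows for 7 of the 8 members, Siglec1 being the exception, and in none of the other pairs, of 21 in all, was a shared run longer than 10 bases. The pairs were compared on the strand of each gene only, so runs shared with an opposite strand were not searched. Only the longest run shared by Siglecf and Cd33 is marked. The run contains GGAAGT, the core bound by ETS-family factors. Promoters with GGAAGT on either strand make up 23.8% of the table, and Ptpn6 and Inpp5d hold it too. TGTGGT, a RUNX core, lies in the Siglecf and Cd33 windows and in 16.8% of all windows. GAGGAAGT, a PU.1-type site that contains the ETS core, lies in the Inpp5d window and in 3.2% of all. A STAT6-type motif lies in the Inpp5d window and in 6.95% of all. No member's window held AGATAA, a form of the motif of GATA-1 and its relatives, which 11.2% of all windows hold. Nor did any hold TTNNGNAAT (C/EBP, 11.5% of all) or TTCNNNGAA (STAT5, 8.3% of all). Other forms of the GATA motif were not searched. The Siglecf window printed above holds TGATAG and TGATAA, whose share of all windows was not counted. A match gives letters only. Over the 17 arrays the values of Cd33 were at a root mean square difference of 0.549 from those of Siglecf, and 8497 genes were closer.

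Siglec1 encodes sialoadhesin, also called CD169, a large Siglec of macrophages that binds sialylated cells and has no ITIM. Its transcript was lower in esophageal than in marrow eosinophils with Dox, in both genotypes. The values were -0.36, -0.56 and -0.51 in knockout esophagus and 0.99, 0.34 and 0.74 in knockout marrow with Dox. In wildtype they were -0.60, -0.55 and -0.31 in the esophagus, against 0.56, 0.34 and 0.50 in marrow with Dox. The arrays of the tissues did not overlap in either genotype. In knockout Siglec1 fell by 1.17 (SE 0.14, limma adjusted p = 0.000197). In wildtype it fell by 0.96 (SE 0.14, limma adjusted p = 0.00114), in a comparison in which 15.2% of all genes were called and 7.06% were called lower. Both calls were kept in all 25 alternatives run for each.

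The difference of these tissue effects between the genotypes was -0.21 ± 0.20 (95% interval -0.65 to 0.23, limma adjusted p = 0.962). Within the esophagus the genotypes differed by 0.01 ± 0.14 (95% interval -0.30 to 0.32), the smallest of the 8 differences there, and its sign changed in 5 of 24 alternatives. In marrow without Dox the values of Siglec1 were 0.27, 0.30 and 0.41 in knockout, the last in the outlying array, against -0.27 and -0.50 in wildtype, with no overlap. That difference was 0.72 ± 0.16 and was not called (limma adjusted p = 0.546), in a comparison in which 0% of genes were called and 8.16% had an unadjusted p under 0.05. Without the outlying array it was 0.67. It was called after quantile normalization, at 1.02 (adjusted p = 0.0392), and the range over its alternatives was 0.0392 to 0.978. Within wildtype marrow, Siglec1 differed between Dox and no Dox by 0.85 ± 0.16 (limma adjusted p = 0.141, and 0.00571 to 0.955 over the alternatives). Within knockout marrow the Dox difference was 0.36 ± 0.14 (limma adjusted p = 0.159).

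Markers of macrophages and monocytes were compared between the tissues too. Of 13 measured markers, 8 were called lower in esophagus than in marrow in knockout (median difference -1.60, against 0.06 over all genes) and 4 in wildtype (median -0.33, against 0.14), and none was called higher. The share of all genes called lower was 6.04% in knockout and 7.06% in wildtype. The neutrophil and mast cell lists also had markers called lower, as given below. Mertk, a receptor for the uptake of dying cells, fell by 3.06 in knockout (limma adjusted p = 0.000184) and fell by 2.94 in wildtype (0.000326). Cd163, the haemoglobin scavenger receptor, fell by 2.13 in knockout (0.00174) and fell by 1.70 in wildtype (0.00885). In knockout the mannose receptor gene Mrc1 fell by 1.60 and the complement gene C1qb fell by 0.94. In wildtype Timd4, a phosphatidylserine receptor of resident macrophages, fell by 2.03, and Ly6c2, a marker of monocytes, fell by 5.23.

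Averaged per array, the 13 markers were at -0.83 to -0.66 in knockout esophagus and at 0.46 to 1.00 in knockout marrow with Dox. In wildtype they were at -0.65 to -0.36 in the esophagus and at 0.52 to 0.71 in marrow with Dox. In marrow without Dox they were at -0.76 to 0.31 in knockout, the lowest being the outlying array, and at -0.21 and -0.16 in wildtype. That array had the highest Siglec1 value of its group and the lowest marker mean. The other arrays of that group had marker means of 0.31 and 0.25. The part of these markers in the Siglec1 result was not tested.

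**Figure D3:**
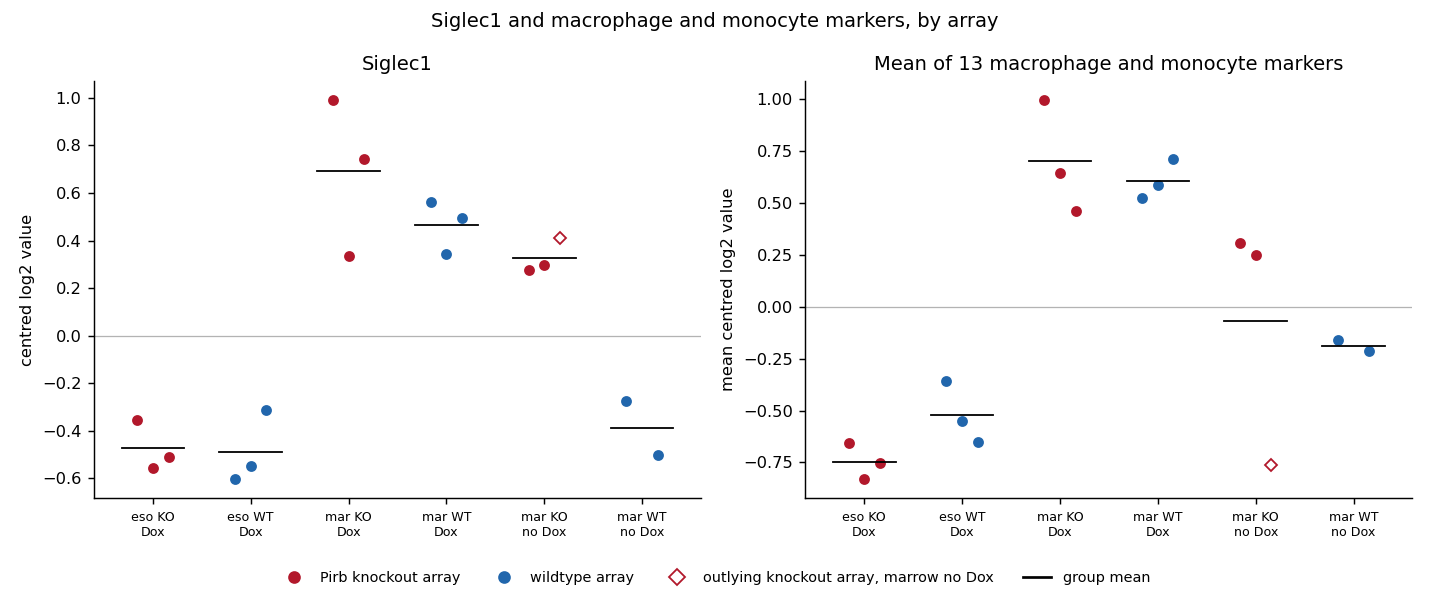
Centred log2 value of Siglec1 (y axis, left panel) and the mean centred log2 value of 13 macrophage and monocyte markers (y axis, right panel) in each of the 17 arrays, by group (x axis as in the plot of the 8 genes). Points are arrays, bars are group means and the open diamond is the outlying array; both measures are below 0 in all 6 esophageal arrays and above 0 in all 6 marrow arrays with Dox, and the diamond is high for Siglec1 and low for the markers.

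Ptpn6 encodes SHP-1, the tyrosine phosphatase on which most inhibitory receptors of leukocytes depend. No difference in Ptpn6 was called. The values were 0.15, 0.36 and 0.84 in knockout esophagus, against -0.33, -0.85 and -0.20 in wildtype esophagus, and the groups did not overlap. That difference was 0.91 ± 0.38 (95% interval 0.09 to 1.73, limma adjusted p = 0.305). Without the outlying marrow array, which enters only the shared spread of this comparison, it was called (adjusted p = 0.0348), and the range over its alternatives was 0.0348 to 1. In marrow with Dox the values lay close together, at 0.17, 0.06 and 0.07 in knockout and 0.12, -0.06 and 0.16 in wildtype. Without Dox they were -0.07, -0.28 and -1.93 in knockout marrow, the last in the outlying array, and 0.23 and -0.36 in wildtype marrow. The knockout mean there was -0.76 with that array and -0.18 without it.

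Inpp5d encodes SHIP-1, which limits PI3-kinase signalling and is itself recruited by ITIM receptors and by Fc receptors. Its values were 0.96, 0.47 and 0.23 in knockout esophagus and 0.37, -1.03 and -0.34 in wildtype esophagus, with replicate 1 of wildtype inside the knockout range. The difference was 0.88 ± 0.38 (95% interval 0.07 to 1.70, limma adjusted p = 0.311), and 0.05 with the Y-linked covariate. Those of marrow with Dox were 0.08, -0.03 and -0.14 in knockout and 0.12, 0.41 and 0.03 in wildtype. Without Dox they were 0.06, -0.72 and -1.53 in knockout marrow, the last in the outlying array, and -0.10 and -0.51 in wildtype marrow. No difference in Inpp5d was called, and its genotype by tissue interaction was 1.10 ± 0.53 (limma adjusted p = 0.962).

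Ptpn11 encodes SHP-2, which inhibitory receptors recruit but which also promotes Ras signalling downstream of growth factor receptors. It had the widest range of the 8 genes, 3.61 from the lowest array to the highest, at the 97.3 percentile of all genes. The values were -0.35, -0.57 and -0.78 in knockout esophagus and -0.20, -2.52 and -1.85 in wildtype esophagus. Marrow with Dox had 0.51, 1.03 and 1.08 in knockout and 0.81, -0.14 and 0.26 in wildtype. Without Dox they were 0.37, 0.14 and -2.09 in knockout marrow, the last in the outlying array, and 0.69 and 0.58 in wildtype marrow. All 6 esophageal arrays lay below all 6 marrow arrays with Dox, by the narrowest margin between wildtype esophagus replicate 1, at -0.20, and wildtype marrow replicate 2, at -0.14.

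The tissue differences of Ptpn11 were -1.44 ± 0.61 in knockout (limma adjusted p = 0.176) and -1.83 ± 0.61 in wildtype (limma adjusted p = 0.0594), and neither was called. Over the alternatives the adjusted p was 0.00433 to 0.365 in knockout, with 6 of 25 alternatives calling it, and 0.00373 to 0.212 in wildtype, with 4 of 25 calling it. Without the outlying array both were called (adjusted p = 0.0436 in knockout and 0.00972 in wildtype). Between the genotypes Ptpn11 differed by 0.96 ± 0.61 in the esophagus (limma adjusted p = 0.447), and the difference was 0.46 without wildtype replicate 2 and 1.62 without wildtype replicate 1. It turned to -0.33 once the Y-linked mean entered as a covariate, which also moved the wildtype tissue difference to -1.03.

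The lowest phosphatase values lay in arrays with a high overall median. The median over all probe sets was 0.131 and 0.0984 in replicates 2 and 3 of wildtype esophagus and 0.202 in the outlying array, against at most 0.0166 in the other arrays. The 3 lowest Ptpn11 values of the series, -2.52, -1.85 and -2.09, were in these 3 arrays. The lowest Ptpn6 value, -1.93, and the lowest Inpp5d value, -1.53, were in the outlying array, and the next lowest of each, -0.85 and -1.03, in wildtype esophagus replicate 2. The part of array quality in these differences was not tested.

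Counted over the group, all 8 genes had higher means in knockout than in wildtype esophagus, with 1 called, and 4 had arrays wholly apart (Siglecf, Siglece, Cd33 and Ptpn6). The arrays of 23.3% of all genes were wholly apart in this comparison, and those of 5.67% were apart and higher in knockout. The median difference was 0.69 over the 8 genes and -0.10 over all genes. After quantile normalization 7 of 8 were higher, with a median of 0.39, Siglec1 was at -0.10 and none was called. With that Y-linked mean as a covariate 7 of 8 were higher, Ptpn11 was at -0.33, the median of the 8 was 0.15 and none was called. In marrow with Dox 0 of 8 were called, and 0% of all genes were (1.83% had an unadjusted p under 0.05). Only Cd33 had arrays apart there, as 11.7% of all genes had, and the median difference was 0.22 over the members. In marrow without Dox 0 of 8 were called, 2 were higher in knockout, and 3 had arrays apart (Siglec1 higher, Siglecf and Ptpn11 lower in knockout), against 23.3% of all genes. The 3 phosphatases had the most negative differences there, -0.69 (Ptpn6), -1.16 (Ptpn11) and -0.42 (Inpp5d), and without the outlying array they were -0.11, -0.38 and -0.02.

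**Figure D4:**
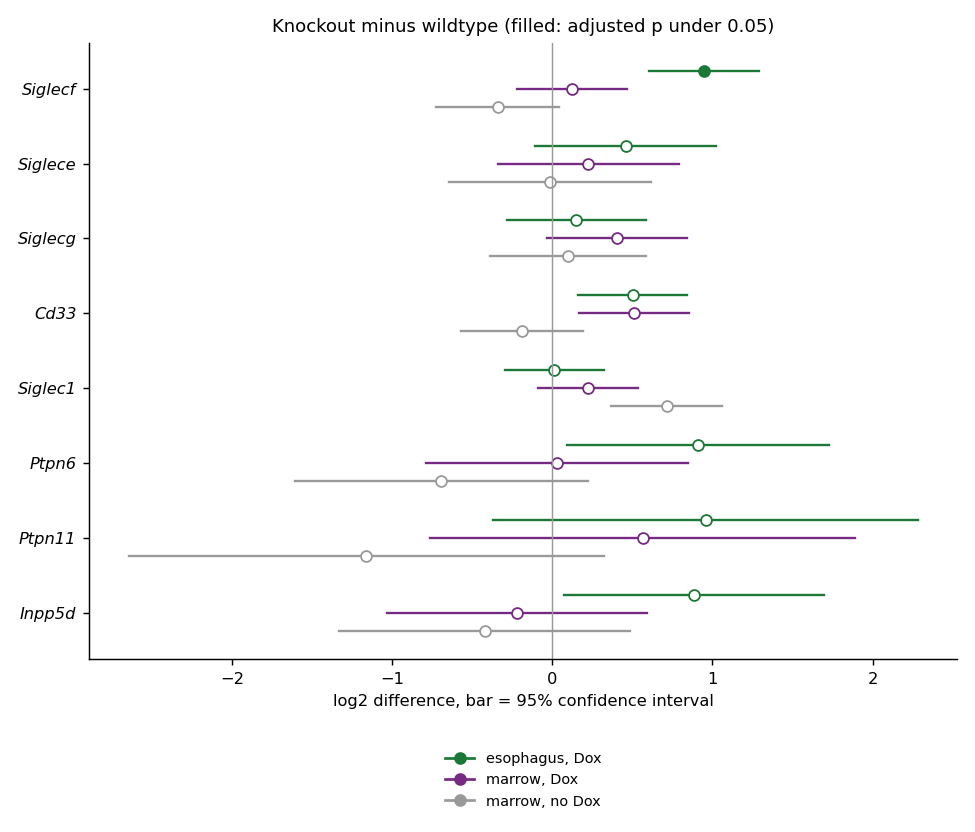
Knockout minus wildtype difference (x axis, log2, with the 95% confidence interval as a bar) of each of the 8 genes (y axis) in the esophagus with Dox, in marrow with Dox and in marrow without Dox, from top to bottom within a gene. A filled point is called; that is Siglecf in the esophagus, at 0.95, while all 8 esophageal points lie to the right of 0 (Siglec1 turns to -0.10 after quantile normalization and Ptpn11 to -0.33 with the Y-linked covariate).

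In the tissue comparison with Dox, 2 of 8 genes were called in knockout (Siglecf higher and Siglec1 lower) and 1 in wildtype (Siglec1 lower), against 10.5% and 15.2% of all genes. The arrays of 5 members were wholly apart between the tissues in knockout and of 4 in wildtype, against 44.0% and 46.1% of all genes. Between Dox and no Dox in marrow, 0 of 8 were called in knockout, where 0.0225% of all genes were called and 27.3% had an unadjusted p under 0.05. In wildtype 0 of 8 were called, where 0.0225% were called and 4.31% had an unadjusted p under 0.05. The arrays with and without Dox were wholly apart for Ptpn6 and Ptpn11 in knockout and for Cd33, Siglec1 and Inpp5d in wildtype, against 36.5% and 25.3% of all genes. For the 3 phosphatases the Dox differences in knockout were 0.86 (Ptpn6), 1.40 (Ptpn11) and 0.70 (Inpp5d), and without the outlying array they were 0.28, 0.62 and 0.30.

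**Figure D5:**
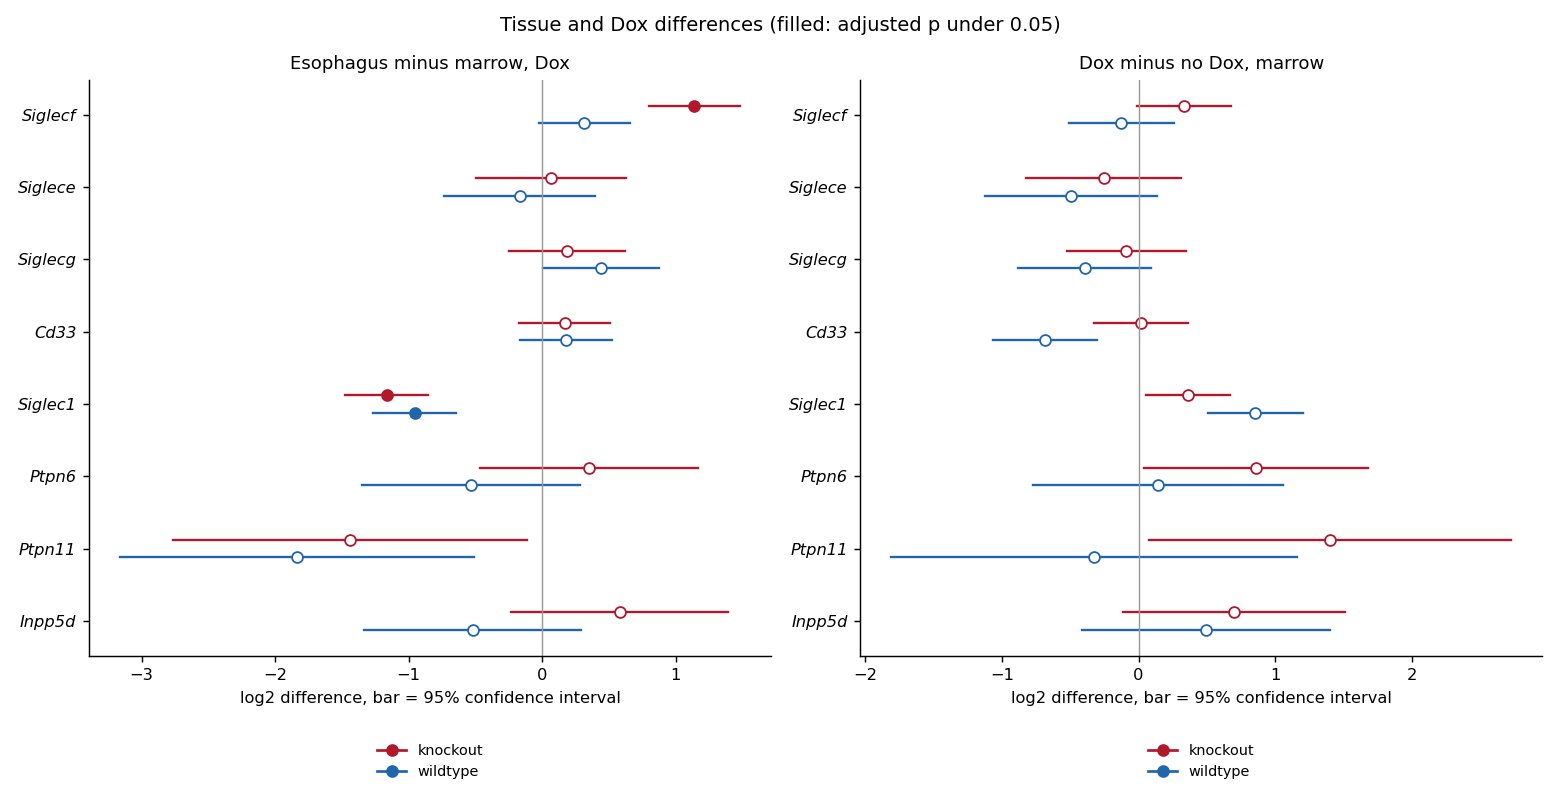
Esophagus minus marrow with Dox (left) and Dox minus no Dox in marrow (right) for each of the 8 genes (y axis), in log2 units (x axis) with 95% confidence intervals as bars, knockout above wildtype. Filled points are called: Siglecf in knockout at 1.14, and Siglec1 at -1.17 in knockout and -0.96 in wildtype.

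Around the receptors stand the enzymes that make and remove their ligands. None of 10 genes of sialic acid synthesis and removal and none of 16 sialyltransferase genes was called between the genotypes in any of the 3 settings. In the esophagus relative to marrow, Nans, the sialic acid synthase, fell by 0.63 in knockout (limma adjusted p = 0.04) and fell by 0.57 in wildtype (0.0489). Cmah, which hydroxylates CMP-sialic acid and so sets the form that several mouse Siglecs bind, rose by 0.71 ± 0.14 in knockout (0.00551). Neu3, a sialidase of the plasma membrane, rose by 0.43 ± 0.12 in wildtype (0.0279). Among the sialyltransferases St3gal6 rose in both genotypes, by 0.52 ± 0.11 in knockout (0.00722) and 0.40 ± 0.11 in wildtype (0.0283), and St6gal2 rose by 0.48 ± 0.10 in wildtype (0.0091). The median over the 16 was 0.13 in knockout and 0.18 in wildtype, beside 0.06 and 0.14 over all genes. Of the 10 genes of synthesis and removal, 1 was called higher and 1 lower in each genotype. Of the 16 sialyltransferases, 1 was called higher in knockout and 2 in wildtype. Over all genes, 10.5% were called in this tissue comparison in knockout and 15.2% in wildtype.

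Of 4 further Siglec genes (Cd22, Mag, Siglech and Siglec15), none was called between the genotypes. Mag, the myelin Siglec, rose by 0.35 ± 0.10 in wildtype esophagus relative to marrow (limma adjusted p = 0.0343), where 15.2% of all genes were called.

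Upstream of the phosphatases are the kinases that phosphorylate ITIMs and their brakes, of which 8 of 11 listed genes were measured. Csk, the kinase that holds Src-family kinases inactive, averaged 0.94 ± 0.25 in knockout esophagus and 0.0034 ± 0.21 in wildtype esophagus. It rose by 0.93 ± 0.13 (limma adjusted p = 0.0133), the single call of the list between the genotypes. The genotype calls of Csk and of Ptpre come from a comparison in which 77 genes were called. That number was 2 after quantile normalization, 8 with only the compared groups and 7 with the Y-linked covariate. In knockout Csk also rose by 0.95 ± 0.13 in the esophagus relative to marrow (0.000458). Syk, the kinase of activating receptors, rose in the esophagus relative to marrow by 1.67 ± 0.22 in knockout (0.000316) and by 1.53 ± 0.22 in wildtype (0.000822). Of the 8 genes, 2 were called between the tissues in knockout and 1 in wildtype, against 10.5% and 15.2% of all genes.

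Other inhibitory receptors that use the same phosphatases numbered 17 measured of 18 listed, and 0 were called between the genotypes. In the esophagus relative to marrow, 6 of the 17 were called higher and 1 lower in knockout, and 4 higher and 1 lower in wildtype, where 10.5% and 15.2% of all genes were called. Called or not, 11 were higher and 6 lower in each genotype. Cd300lf, a lipid-binding receptor of myeloid cells, rose by 2.37 ± 0.24 in knockout (limma adjusted p = 3.96e-05) and by 1.76 ± 0.24 in wildtype (0.000585). Lilrb4a, also known as gp49B, rose by 3.04 ± 0.53 in knockout (0.00233) and by 2.69 ± 0.53 in wildtype (0.00631). Pecam1 rose by 1.60 ± 0.36 (0.0108) and Cd300a by 1.32 ± 0.32 (0.017) in knockout, while the collagen receptor gene Lair1 fell by 1.59 in wildtype (0.0143). The Pirb probe set rose by 1.40 ± 0.39 in knockout (0.0348) and by 1.53 ± 0.39 in wildtype (0.0212).

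Among 11 measured of 12 other tyrosine and inositol phosphatases, Ptpre was the single call between the genotypes in the esophagus, as given above. In the esophagus relative to marrow, Ptpre rose by 1.03 ± 0.12 in knockout (limma adjusted p = 0.000155). Ptpn1, which encodes PTP1B, rose by 0.89 ± 0.21 in knockout (0.0162) and 0.82 ± 0.21 in wildtype (0.0235), and Ptpn2 rose by 0.82 ± 0.22 in knockout (0.0295). Of 10 adaptors of SHIP-1 and SHP-2, none was called between the genotypes. Sh2d1b1, which encodes the adaptor EAT-2, fell in the esophagus by 1.35 in knockout (0.00576) and fell by 0.93 in wildtype (0.037), and Sos1, a Ras exchange factor, fell by 1.14 in wildtype (0.0488). Between the tissues, 3 of the 11 phosphatases and 1 of the 10 adaptors were called in knockout, where 10.5% of all genes were. In wildtype 1 of the 11 and 2 of the 10 were called, where 15.2% of all genes were. None of the 3 adaptors of activating receptors (Tyrobp, Hcst and Fcer1g) was called in any comparison.

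Markers of other cells differed between the tissues as well. Over all genes, 6.04% were called lower and 4.50% higher in the esophagus in knockout, and 7.06% lower and 8.11% higher in wildtype. Of 12 neutrophil markers 9 were called lower and 1 higher in the esophagus in knockout (median -2.88), and 8 lower and 1 higher in wildtype (median -3.02), among them Mpo, Elane, Ngp and Ltf. Their mean per array was -2.55 to -2.39 in knockout esophagus, against -0.05 to 0.36 in knockout marrow with Dox. In wildtype it was -3.34 to -2.50 in the esophagus, against 0.0013 to 0.40 in marrow with Dox. Of 7 mast cell and basophil markers 4 were called lower in each genotype, Cpa3, Kit, Mcpt8 and Ms4a2, and the mean of the 7 lay at -1.57 to -1.30 in the 6 esophageal arrays, against 0.17 to 0.47 in the 6 marrow arrays with Dox. Of 7 measured eosinophil markers, the granule genes Epx and Prg2 fell in both genotypes (Epx fell by 3.50 in each), while Alox15 rose by 3.36 in knockout and by 2.95 in wildtype and Il5ra rose by 2.44 in knockout. In each of the lists of 6 B cell, 6 T cell, 6 dendritic cell and 7 epithelial markers, 1 at most was called in a genotype. The B cell, dendritic cell and epithelial lists had 1 call each in knockout, and the T cell and epithelial lists 1 each in wildtype. Between the genotypes none of the markers of any list was called in any setting. Whether these other cells or cell stages have a part in the tissue differences of Siglecf and Siglec1 was not tested.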

How the data were processed

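RNA of eosinophils sorted from 17 samples was amplified (Nugen Ovation One-Direct), biotin-labelled and hybridised to 1 Affymetrix array each, per the labels' protocols. The authors deposited 1 log value per probe set and array, processed with Affymetrix Expression Console per the submitters' processing notes. Array normalization and log base being not given in the sources used here, all deposited values are treated as log2. In 97.08% of the 33793 probe sets the values were centred at the median of 18 arrays (tolerance 2e-05). The eighteenth, a wildtype array of marrow without Dox, was dropped by the submitters for low signal. Centring removes brightness, so levels of different genes and filters on dim probe sets are not available.

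Symbols came from the platform annotation: 23521 probe sets had 1 symbol, 1814 several and 8458 none. Of the first, 23328 matched the RefSeq table of GRCm38.p6. Probe sets of a gene were averaged, which gave 22180 genes. Group means were fitted with limma 3.58.1 in R 4.3.3 (lmFit and eBayes, 6 groups, 17 arrays, no covariate), with two-sided p-values and Benjamini-Hochberg adjustment over all genes. The fit was checked on simulated data. Single genes were also compared by two-sided exact permutation tests, which cannot give a p under 0.1 here. The samples are not stated to come from separate mice, so p-values measure the spread between these samples, which may be technical. The small number of arrays limits the precision.

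The 8 genes, the pathway and marker lists and the tests were chosen with earlier results of these data known. Named from a list are the called genes, up to 4 a comparison with the smallest p, and Pirb as the deleted gene. Alternatives were median centring, quantile normalization, array weights, only the compared groups, another probe set rule, a replicate block, each array left out and, chosen after seeing the data, a Y-linked covariate. Tissue comparisons and their interaction with genotype were also run on the Dox arrays alone, with a block of genotype and replicate number. Leaving out an array of a group outside a comparison cannot change its difference, only the shared spread and the adjustment. Whether the replicate numbers pair the arrays is not stated in the sources used here. Over 19 same-numbered pairs the correlation of deviations was -0.0902 to 0.203, with 5 over 0.1. With so few arrays a group, this does not settle it.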

Additional observations from a re-analysis of the deposited data

How the results depend on the processing

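Of 72 differences of the 8 genes over 9 comparisons, 4 were called, and none of the 4 changed direction under any alternative, while 16 of the 72 did under at least one. Siglec1 between the tissues (-1.34 to -1.02 in knockout, -1.06 to -0.87 in wildtype) and Siglecf between the tissues in knockout stayed called throughout. Between the genotypes in the esophagus, 1 of the 8 genes was called, against 0 after quantile normalization, with only the groups compared, with the replicate block (Siglecf adjusted p = 0.0509) and with the Y-linked covariate, 2 with array weights and 0 to 3 with each array left out, the 3 being Siglecf, Cd33 and Ptpn6 without the outlying array. Between the genotypes in marrow without Dox, 0 were called, against 1 after quantile normalization. Between the tissues in wildtype, 1 was called, and 1 to 2 with each array left out. That count was 2 after quantile normalization, with array weights and with the block of genotype and replicate number over the Dox arrays. In knockout 2 to 3 were called with each array left out. Between Dox and no Dox in wildtype marrow, 0 were called, against 2 after quantile normalization, 1 with array weights and 0 to 1 with each array left out. In knockout marrow 0 were called, against 3 with array weights. Whether the replicate numbers pair the arrays is not settled, so a call lost under the block cannot be read either way. The number of genes called over all 22180 varied widely, from 2 to 858 around 77 between the genotypes in the esophagus, from 1335 to 8210 around 3366 between the tissues in wildtype, from 1538 to 6117 around 2336 in knockout, from 0 to 3331 around 5 with Dox in knockout marrow and from 0 to 126 around 5 in wildtype marrow. It was 0 to 6 and 0 to 37 around 0 between the genotypes in marrow with and without Dox. The share of calls that were higher moved too. Between the genotypes in the esophagus it was 89.6%, against 100% of 2 calls after quantile normalization, 53.1% of 858 with array weights, 51.0% of 763 without the outlying array and 66.0% of 532 without wildtype esophagus replicate 1. Between the tissues in wildtype it was 53.4%, against 40.5% after median centring, 39.2% after quantile normalization and 70.5% with array weights. With Dox it was 100% of 5 calls in knockout marrow, against 50.2% of 233 after quantile normalization, 26.8% of 3331 with array weights and 33.8% of 346 without knockout no-Dox replicate 1. In wildtype marrow it was 80.0% of 5, against 100% of 3 after median centring and 7.14% of 14 without wildtype no-Dox replicate 1. Median centring moved the median of all genes between the tissues in wildtype to 0.03, against 0.14. The causes were not tested. The filter on dim probe sets could not be run on centred values.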
